A study of Gallus gallus with 24 samples.

Results

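Transcripts of the small cytokines XCL1, CCL1, CCL4, CCL5, CCL17, CCL19 and CCL20 were followed in chicken peripheral blood mononuclear cells (PBMCs) that were cultured with probiotic bacteria or with a T cell mitogen. The members were chosen by gene symbol, and every row of the deposited tables that carries 1 of these 7 symbols was taken, which gave 8 of 23910 genes. CCL4 has 2 entries, ENSGALG00000032717 and ENSGALG00000034478, called the major and the minor entry here by their read numbers. The other entries are XCL1 (ENSGALG00000015235), CCL1 (ENSGALG00000002329), CCL17 (ENSGALG00000024466), CCL5 (ENSGALG00000043603), CCL20 (ENSGALG00000003003) and CCL19 (ENSGALG00000028256). All 8 entries passed the filter of at least 2 reads over all libraries and were among the 20266 genes tested.

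PBMCs came from 6 broiler chickens of the commercial breed Cobb500, aged 4 to 6 weeks. The PBMCs of each chicken were cultured for 24 h in RPMI medium with chicken serum, without antibiotics, in 4 conditions: in medium alone (control), with a vital probiotic strain of B. subtilis (BS), with a vital probiotic strain of B. velezensis (BV), each at 3 bacteria per PBMC, or with the plant lectin concanavalin A (conA) at 10 µg/ml as a positive control for cell proliferation. Experimental duplicates of each chicken were pooled before sequencing of total RNA, which left 1 library per chicken and condition, 6 per condition and 24 in all. The comparisons asked which of these chemokine genes respond to live Bacillus and which to conA.

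Chemokines are secreted proteins that guide the migration of leukocytes through receptors on their surface. The roles named here are known mainly from human and mouse. XCL1 is released by activated T cells and natural killer (NK) cells and binds XCR1 on cross-presenting dendritic cells. CCL1, a product of activated T cells, binds CCR8, and CCL17 binds CCR4, both receptors of helper and regulatory T cells. CCL4 and CCL5 are inflammatory chemokines of lymphocytes and macrophages that attract T cells, NK cells and monocytes. CCL20 binds CCR6, and CCL19 binds CCR7, which directs T cells and dendritic cells to lymphoid tissue.

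The gene counts of a library summed to 12170873 to 31242160 reads. Levels are given as normalized counts, which are the reads of a gene divided by the size factor of the library. The T cell markers of the label PBMC were present, with a summed level of 99194 to 118491 normalized counts in the control, as were monocyte markers (197 to 1304 in sum). Thrombocyte markers were also present, with a sum of 1356 to 108356 in the control. For each comparison edgeR's quasi-likelihood test was run across the 20266 genes. The main fits had no term for the chicken, since none is named in the methods. Since the same 6 chickens supplied every condition, each test is also given with the chicken as a block, where this changes the result. A gene passed at a Benjamini-Hochberg adjusted p under 0.05.

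After conA, XCL1 and CCL1 rose by more than 7 on the log2 scale and were higher in all 6 chickens, and CCL17 was read in no other condition. Without a block, 2 of the 8 entries passed against the control, compared with 2.34% of all genes tested (2.2% higher), and with the block 3 passed, compared with 6.12% (3.52% higher). All of these were higher after conA and past the study's threshold of 1.5 for the log2 fold change (log2 FC), which 0.873% of all genes passed without and 2.42% with the block. CCL17, 1 of the 3 with the block, passed the read filter through its conA libraries alone, so its direction was set in advance. CCL4, CCL5, CCL19 and CCL20 did not pass in this comparison.

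XCL1 was close to the detection limit in the control, with normalized counts of 0, 7.01, 1.21, 5.75, 2.01 and 3.55 in chickens 1 to 6. After conA these values were 260.2, 363, 1160.1, 208, 306 and 1152. The groups did not overlap, and the libraries of chickens 3 and 6 stood above the other 4. In edgeR's test the log2 FC was 7.35 (SE 0.68, adjusted p = 5.9e-06, higher in 6 of 6 chickens) without a block and 7.26 (SE 0.34, adjusted p = 2.12e-11) with it. Over the group, 3391 reads after conA stood against 21 in the control, a ratio of 164 after scaling (95% interval of the counting error 107 to 265).

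XCL1 after BS was 2.08, 3.24, 16.2, 10.3, 9.24 and 12 normalized counts in chickens 1 to 6. After BV it was 0, 2.59, 0.859, 3.52, 0 and 5.63. The BS value was above the BV value in 6 of 6 chickens and above the control in 5 of 6, while the groups overlapped. Neither difference passed in edgeR's test across all genes: for BS against BV the log2 FC was 1.95 (SE 0.65, adjusted p = 1), and for BS against the control it was 1.37 (SE 0.60, adjusted p = 1). With the block these were 1.96 (SE 0.62, adjusted p = 1) and 1.32 (SE 0.57, adjusted p = 0.358). These levels rest on 51 reads after BS, 14 after BV and 21 in the control over 6 libraries each.

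CCL1 was read 3 times in the control, 9 times after BS and 8 times after BV, each over 6 libraries, and 538 times after conA. Its normalized counts after conA were 46.3, 54.4, 187, 66.4, 54.1 and 137 in chickens 1 to 6, all above every library of the other conditions, of which the highest had 4.33. The log2 FC of conA against the control was 7.21 (SE 0.79, adjusted p = 2.68e-05 in edgeR's test) and 7.18 (SE 0.55, adjusted p = 2.45e-06) with the block. The ratio of scaled reads was 182, with a counting interval of 61.9 to 885 because of the few reads in the control. The differences between BS or BV and the control did not pass.

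The chickens with the most XCL1 after conA, 3 and 6, also had the most CCL1. Over the 6 conA libraries, log2 levels of both genes had a Pearson's r of 0.915 (exact permutation p = 0.0458, adjusted p = 0.0535 over 7 relations between members) and a Spearman's rho of 0.657 (exact p = 0.175, adjusted p = 0.175). Without chickens 3 and 6 r was -0.452, so this relation rests on these 2 libraries.

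CCL17 had 0 reads in all 18 libraries of the control, BS and BV, which allows up to 3 reads in their total of 429792622. After conA 83 reads were counted, and the normalized counts in chickens 1 to 6 were 10.1, 7.25, 30.5, 0, 28.1 and 7.44. The gene was thus seen in 5 of 6 chickens and was at least 28.1-fold higher than in the control, with the control set to a floor of 3 reads in all. The call depended on the fit: the adjusted p for conA against the control was 0.0557 in edgeR's test, 0.0121 with the block, 7.77e-05 in DESeq2 and 0.15 in DESeq2 with the block. Without the block it was 0.0351 when chicken 4, the conA library without a read, was left out.

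For chickens 3 to 6 the conA libraries carry numbers in the sample labels that stand apart from those of the other 3 conditions, whereas for chickens 1 and 2 the numbers run on. What the numbering stands for is not given. In edgeR's test on chickens 1 and 2 alone, the log2 FC of XCL1 was 6.48 (adjusted p = 0.0269) and that of CCL1 5.55 (adjusted p = 0.067). In chickens 3 to 6 alone these were 7.67 (adjusted p = 0.000734) and 8.25 (adjusted p = 0.00145). CCL17 had 6.27 (adjusted p = 0.438) and 7.05 (adjusted p = 0.155) in these subsets.

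**Figure D1:**
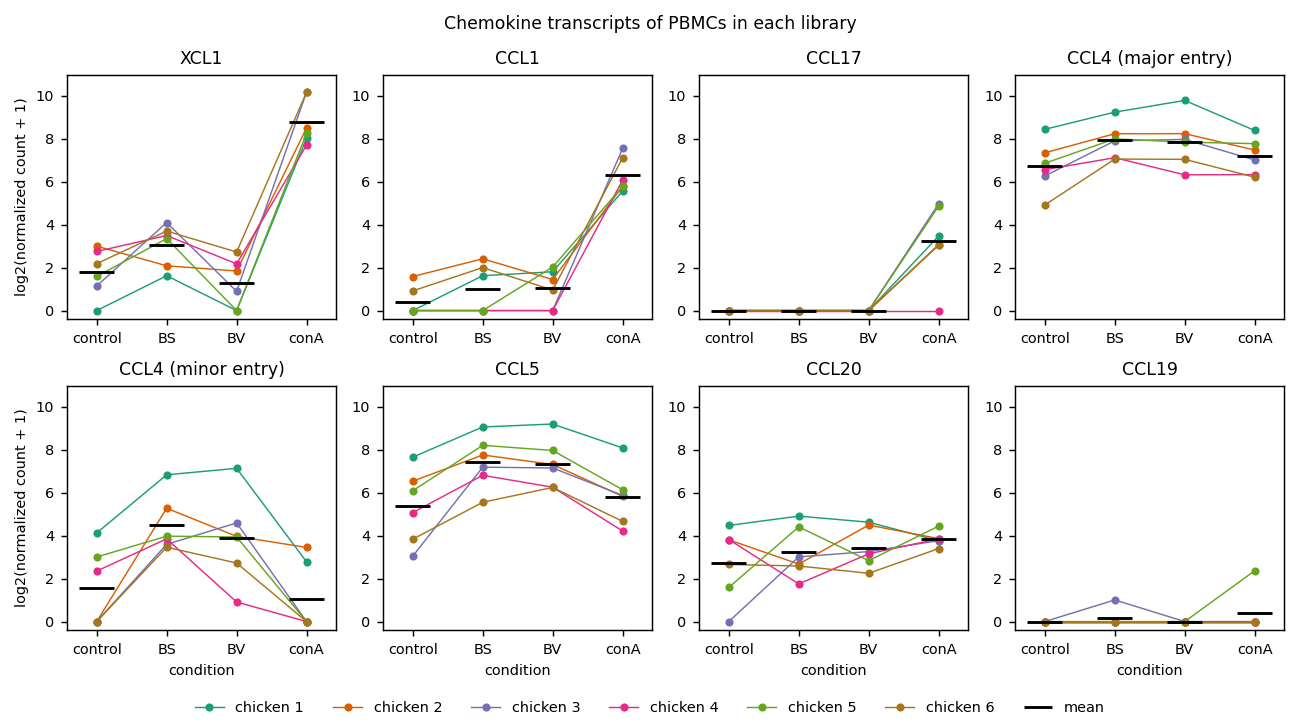
Level of each member in every library, as log2(normalized count + 1), by condition. Points of 1 chicken are joined by a line of its colour and black bars are the mean of the 6 log2 values. XCL1, CCL1 and CCL17 stand high after conA, with XCL1 at 208 normalized counts or more in all 6 chickens, CCL4 and CCL5 are highest after BS and BV in most chickens, and CCL20 and CCL19 show no difference that passed.

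After BS and after BV, CCL4 and CCL5 were higher than in the control within nearly all chickens, with fitted differences between the groups of about 1 to 3 on the log2 scale. Without a block, 0 of the 8 entries passed after BS, compared with 0% of all genes. An unadjusted p under 0.05 was found for 637 of the 20266 genes, among them XCL1, the minor CCL4 entry and CCL5. Without a block that is fewer genes than this threshold alone would give if no gene changed. In edgeR with the block 2196 genes were under it, which is more than the threshold alone would give. DESeq2 without a block also called 0 entries, compared with 0.0746% of all genes. In edgeR with the block, 3 of 8 entries passed after BS, compared with 1.04% of all genes (0.641% higher), and these were both CCL4 entries and CCL5. After BV, 0 entries passed without a block, compared with 0.00493% of all genes. At an unadjusted p under 0.05 were 597 of the 20266 genes, again fewer than the threshold alone would give, among them the minor CCL4 entry and CCL5. In edgeR with the block these were 2203 genes, again more than the threshold alone would give. DESeq2 called 0 entries, compared with 0.0551% of all genes. With the block, 3 entries passed after BV, compared with 0.913% of all genes (0.602% higher), and they were the same 3 entries as after BS. BS and BV were compared with the same control libraries, so these lists are not independent of each other. For the minor entry and CCL5 the log2 FC was also above 1.5, which 0.178% of all genes passed after BS and 0.138% after BV.

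The major entry of CCL4 had 348, 162, 76.3, 93.7, 116 and 29.3 normalized counts in the control, in the order of chickens 1 to 6. After BS it had 607, 302, 239.5, 139, 255 and 132, and after BV 886, 302, 251, 79.3, 229.8 and 131. Chicken 1 was the highest in each of the 3 conditions, and the groups overlapped since the chickens differed more than 10-fold within the control. Within chickens, 6 of 6 were above their control after BS, and after BV 5 of 6, all but chicken 4. With the block the log2 FC was 1.06 (SE 0.18, adjusted p = 0.00272 in edgeR's test) after BS and 1.12 (SE 0.17, adjusted p = 0.00149) after BV. Without it the values were 1.02 (SE 0.60, adjusted p = 1) and 1.17 (SE 0.60, adjusted p = 1).

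The minor entry of CCL4 had 16.5, 0, 0, 4.11, 7.05 and 0 normalized counts in the control. After BS it had 113, 37.8, 11.1, 13.5, 14.8 and 10.0, and after BV 140.1, 14.7, 23.2, 0.881, 14.4 and 5.63. All 6 chickens were above their control after BS, and all but chicken 4 after BV. The log2 FC with the block was 2.83 (SE 0.49, adjusted p = 0.000962 in edgeR's test) after BS and 2.71 (SE 0.50, adjusted p = 0.002) after BV, and 2.81 and 2.65 without it (adjusted p = 1 for both). The group totals were 29 reads in the control, 190 after BS and 177 after BV. Chicken 1 gave more reads than the other 5 together after both strains, and without it the adjusted p in the blocked fit was 0.0799 for BS and 0.365 for BV. Over the 6 blocked fits that each left out 1 chicken, its log2 FC was 2.52 to 3.12 after BS and 2.24 to 3.01 after BV.

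In the RefSeq annotation of another assembly (GRCg7b), which gave names and neighbours only, 2 genes that carry the name CCL4 as symbol or synonym lie side by side next to CCL5. Which of them each entry stands for is not given in the files, and reads of similar genes may have been divided between the entries. Both entries were therefore also added up before the fit. The summed level was 142 ± 118 normalized counts in the control, 312 ± 213 after BS and 346 ± 344 after BV (SD, n = 6), and 171 ± 101 after conA. With the block the summed log2 FC was 1.17 (SE 0.19, adjusted p = 0.00296 in edgeR's test) after BS, 1.19 (SE 0.19, adjusted p = 0.00227) after BV and 0.35 (SE 0.20, adjusted p = 0.4) after conA.

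The share of the minor entry differed between libraries. It made up 0% to 5.74% of all CCL4 reads in the control (median 2.10%), 4.44% to 15.8% after BS (median 7.95%), 1.10% to 13.7% after BV (median 5.26%) and 0% to 5.31% after conA (median 0%). In chicken 1 this share was 4.52% in the control (17 of 376 reads, 95% Clopper-Pearson interval 2.66% to 7.14%) and 15.8% after BS (109 of 692 reads, 13.1% to 18.7%). In 6 of 6 chickens conA gave a lower share than BS (exact permutation within pairs, p = 0.03125, which is the lower limit for 6 pairs, adjusted p = 0.125 over 6 comparisons). It was higher after BS than in the control in 5 of 6 (exact p = 0.0625, adjusted p = 0.125) and after BV in 5 of 6 (exact p = 0.09375, adjusted p = 0.141), so none of these passed after adjustment. Libraries with 0 minor reads had between 33 and 210 CCL4 reads, and such a count allows a share of up to 1.74% to 10.6% by the upper bound of the same interval. These intervals cover counting error only.

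**Figure D2:**
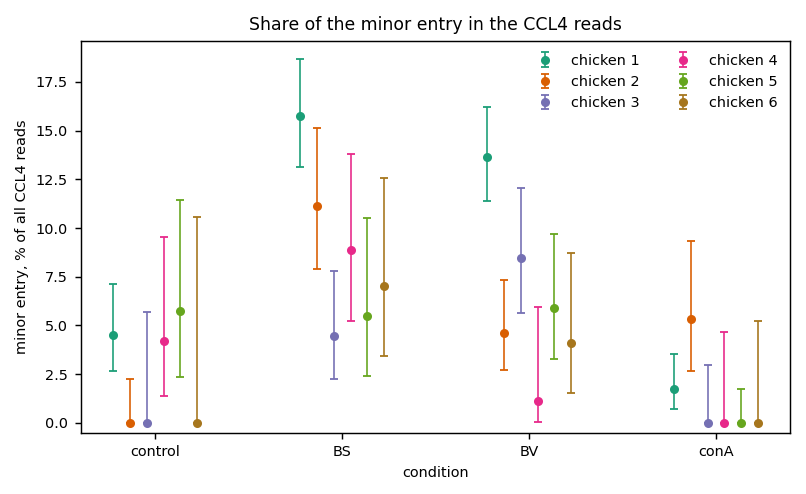
Share of the minor entry among the reads of both CCL4 entries in each library, in percent, by condition and chicken. Bars are 95% Clopper-Pearson intervals of the counting error. The medians are 2.10% in the control, 7.95% after BS, 5.26% after BV and 0% after conA, and the bars of most libraries overlap between conditions.

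CCL5 had 202, 92.2, 7.27, 32.9, 67.4 and 13.3 normalized counts in the control. After BS it had 536, 216, 146, 112, 296 and 46.2, and after BV 589, 159, 142, 75.8, 250.3 and 75.1. It was above the control in 6 of 6 chickens after each strain, with the smallest log2 ratio within a chicken at 1.22 after BS and 0.78 after BV (pseudocount 1), while the groups overlapped. With the block the log2 FC was 1.73 (SE 0.20, adjusted p = 3.2e-05 in edgeR's test) after BS and 1.63 (SE 0.20, adjusted p = 6.41e-05) after BV. Without it the values were 1.68 (SE 0.73, adjusted p = 1) and 1.61 (SE 0.73, adjusted p = 1). When 1 chicken at a time was removed from this fit, the log2 FC stayed between 1.58 and 1.90 after BS and between 1.48 and 1.83 after BV, with adjusted p of at most 0.00184 and 0.00351.

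Chickens with more CCL4 tended to have more CCL5 within each condition, while no rank correlation passed after adjustment. Chicken 1 had the highest level of the major CCL4 entry and of CCL5 in all 4 conditions. The log2 levels of both genes had a Pearson's r of 0.853 in the control, 0.911 after BS, 0.929 after BV and 0.944 after conA (n = 6 each, exact permutation p = 0.0278, 0.0181, 0.0139 and 0.00556, adjusted p = 0.0389 for each over 7 relations). Spearman's rho was 0.943, 0.943, 0.771 and 0.886 (exact p = 0.0167, 0.0167, 0.103 and 0.0333, adjusted p = 0.0583, 0.0583, 0.144 and 0.0583). After the 2 chickens farthest from the median were left out, r was 0.913, 0.769, 0.727 and 0.911. The same 6 chickens gave all 4 conditions, so these relations are not independent of each other. The minor entry and CCL5 had an r of 0.782 after BS (exact p = 0.0722, adjusted p = 0.0722) and 0.904 after BV (exact p = 0.0222, adjusted p = 0.0389), with a rho of 0.886 and 0.714 (adjusted p = 0.0583 and 0.159), and r was 0.824 and 0.669 without the 2 farthest chickens. Thrombocyte markers were also highest in chicken 1, with summed levels of 108356 in the control, 93631 after BS, 85680.5 after BV and 17923 after conA. Other marker lists peaked there too. B cell markers were highest in chicken 1 in the control (4849), after BS (5203) and after BV (5078), but not after conA. Monocyte markers were so in the control (1304), after BV (989) and after conA (1198), but not after BS. T cell markers were lowest in chicken 1 in the control (99194), after BS and after BV. Within conditions, the part of any of these cell types in the order of the chickens was not tested.

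After conA neither CCL4 nor CCL5 passed against the control, with or without the block. The major CCL4 entry had 335, 178, 128, 79.8, 219 and 73.3 normalized counts in chickens 1 to 6 and a log2 FC of 0.38 against the control (SE 0.20, adjusted p = 0.364 in edgeR's test with the block). The minor entry had 5.90, 9.97, 0, 0, 0 and 0 normalized counts (log2 FC of -0.74, SE 1.00, adjusted p = 0.785). CCL5 had 272, 56.2, 57.9, 17.6, 69.7 and 24.4 (log2 FC of 0.23, SE 0.31, adjusted p = 0.786). Their levels in the conA libraries overlapped with those of the control.

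The direct comparison of conA with the strains separated 2 groups of members. Against BS, 2 entries passed without a block, compared with 4.15% of all genes, and 6 with the block, compared with 13.1%. Against BV, 3 entries passed without a block, compared with 3.64%, and 6 with the block, compared with 11.7%. In both blocked comparisons XCL1, CCL1 and CCL17 were higher after conA, beside 6.95% of all genes against BS and 6.28% against BV, and both CCL4 entries and CCL5 were lower, beside 6.18% and 5.47%. The direction of CCL17 was set in advance here too, since only conA libraries had its reads. For XCL1 the log2 FC without a block was 5.99 against BS (SE 0.46, adjusted p = 1.6e-11) and 7.94 against BV (SE 0.55, adjusted p = 8.9e-13). For CCL1 it was 5.73 (SE 0.53, adjusted p = 1.49e-10) and 6.02 (SE 0.54, adjusted p = 4.77e-11). CCL17 had an adjusted p of 0.0526 against BS and 0.0489 against BV without the block, and 0.00236 and 0.00136 with it. In DESeq2 with the block it did not pass (adjusted p = 0.455 and 0.365), and without the block in edgeR it passed in 1 of the 6 fits that left out a chicken, in each comparison.

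CCL5 was lower after conA than after each strain in 6 of 6 chickens, as matched by replicate number. Its log2 FC in the blocked edgeR fit was -1.53 against BS (SE 0.22, adjusted p = 9.1e-06) and -1.43 against BV (SE 0.22, adjusted p = 2.21e-05). The minor CCL4 entry was likewise lower in 6 of 6 chickens, with -3.59 (SE 0.61, adjusted p = 3.16e-05) and -3.44 (SE 0.61, adjusted p = 7.44e-05), and its conA and BS libraries did not overlap. For the major entry the values were -0.72 (SE 0.18, adjusted p = 0.0072, lower in 6 of 6) and -0.75 (SE 0.18, adjusted p = 0.00439, lower in 5 of 6). Without chicken 1 the adjusted p against BV was 0.089 for the major and 0.0728 for the minor entry. Without the block none of these 3 entries passed, with adjusted p between 0.0581 and 0.642. In chickens 1 and 2 alone the unblocked log2 FC against BS was -1.17 for CCL5 (adjusted p = 0.859), -0.81 for the major (adjusted p = 0.853) and -3.23 for the minor CCL4 entry (adjusted p = 0.511). In chickens 3 to 6 alone it was -1.68 (adjusted p = 0.208), -0.56 (adjusted p = 0.649) and -6.62 (adjusted p = 0.0323).

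No member passed between BS and BV. Of the 8 entries, 0 passed in edgeR's test without and with the block, compared with 0% of all genes in both fits, and DESeq2 called 0 entries and 0% of all genes. At an unadjusted p under 0.05 were 227 of the 20266 genes without and 585 with the block, and XCL1 was the only member among them in each fit. Both numbers are lower than this threshold alone would give if no gene changed. With the block, the log2 FC of BS against BV was -0.06 for the major CCL4 entry (SE 0.16), 0.12 for the minor entry (SE 0.33) and 0.09 for CCL5 (SE 0.17), each with an adjusted p of 1. These errors are smaller than the changes of the same entries against the control.

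**Figure D3:**
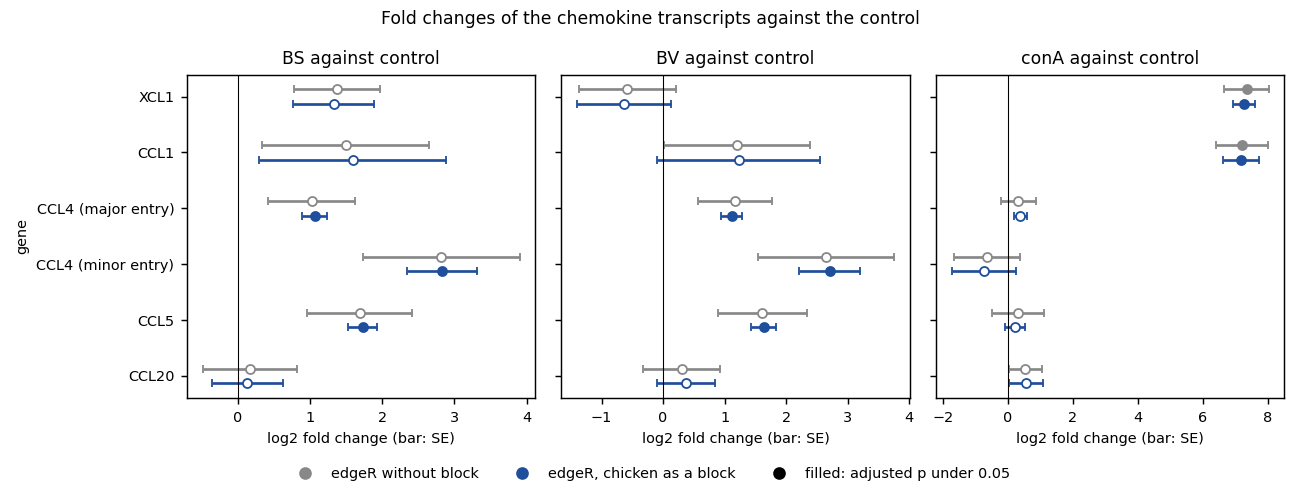
Log2 fold changes of the members with reads in each comparison with the control, with the standard error as bars, from edgeR without (grey) and with the chicken as a block (blue). Filled points have an adjusted p under 0.05. The block narrows the errors of CCL4 and CCL5 and fills their points after BS and BV, while XCL1 and CCL1 are filled in both fits after conA. CCL17, without a read in the control, and CCL19 are not drawn.

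CCL20 was low in every condition, with 59 reads in the control, 59 after BS, 73 after BV and 84 after conA. Its normalized counts were 21.3, 13, 0, 13.1, 2.01 and 5.32 in the control and 29.1, 5.41, 7.07, 2.37, 20.3 and 5.02 after BS. They were 23.8, 21.6, 8.59, 7.93, 6.16 and 3.75 after BV and 12.6, 13.6, 12.6, 13.5, 20.8 and 9.57 after conA. The level was above the control in 3 of 6 chickens after BS, 4 of 6 after BV and 5 of 6 after conA. All groups overlapped, and the log2 FC against the control with the block was 0.13 after BS (SE 0.49), 0.37 after BV (SE 0.47) and 0.55 after conA (SE 0.53). None of these passed in edgeR's test, and with these errors a change of 1 on the log2 scale could not be told from none. CCL19 was counted with 1 read in the BS library of chicken 3 and 4 reads in the conA library of chicken 5 and with 0 reads in the other 22 libraries, so no difference was detectable.

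Over all 44 comparisons of a member between 2 conditions with reads, exact paired permutation tests of the normalized counts within chickens gave a p of 0.03125, the smallest possible, in 16. None had an adjusted p under 0.05 over the 44 tests (smallest 0.0859). Since no p can fall under 0.03125 here, this would have needed many more than 16 tests at that limit. The adjusted values therefore cannot decide on single members.

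Among 12 of 16 sought receptors of CC and XC chemokines that were found in the files, 1 passed after conA without a block and 2 with it, beside 2.34% and 6.12% of all genes, and 0 after BS or BV in either fit. CCR8, the receptor of CCL1, had 6.78 to 35.2 normalized counts in the control, 13.1 to 39.1 after BS, 5.15 to 29.8 after BV and 79.8 to 221 after conA. The conA libraries stood above all others, and the log2 FC against the control was 2.83 (adjusted p = 3.61e-05 in edgeR's test) and 2.80 (SE 0.26, adjusted p = 1.29e-05) with the block. CCL1 and CCR8, a pair of ligand and receptor known mainly from human and mouse, were thus both higher in 6 of 6 chickens after conA. CCR8L, another entry of the receptor list, did not pass after conA (log2 FC of 0.05 with the block, SE 0.35, adjusted p = 0.986). ACKR4, an atypical receptor that takes up CCL19 and other ligands without classical signalling, was lower after conA with the block only (log2 FC of -1.80, SE 0.39, adjusted p = 0.00714, lower in 5 of 6 chickens). Its normalized counts in chickens 1 to 6 were 124, 23.0, 3.63, 8.22, 5.03 and 9.76 in the control. After conA they were 22.7, 11.8, 5.26, 4.15, 1.04 and 2.13. Chicken 1 thus had by far the largest drop in normalized counts, and most other levels were low. As a ratio, the drop was similar in chickens 1, 5 and 6.

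The receptors XCR1, CCR4, CCR6 and CCR7 did not pass in any comparison with the control. XCR1 had 0 to 12.1 normalized counts in the control and 0 to 5.44 after conA (log2 FC of -2.16 with the block, SE 0.93, adjusted p = 0.232). CCR4 was 53.4 ± 48.9 in the control and 36.1 ± 13.6 after conA (SD, n = 6). CCR6 was 48.5 ± 16.3 in the control and 62.5 ± 25.3 after conA. CCR7 had 2645 to 4997 normalized counts in the control and a log2 FC with the block of 0.20 after BS (SE 0.06, adjusted p = 0.117), 0.17 after BV (SE 0.06, adjusted p = 0.235) and 0.24 after conA (SE 0.12, adjusted p = 0.353).

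**Figure D4:**
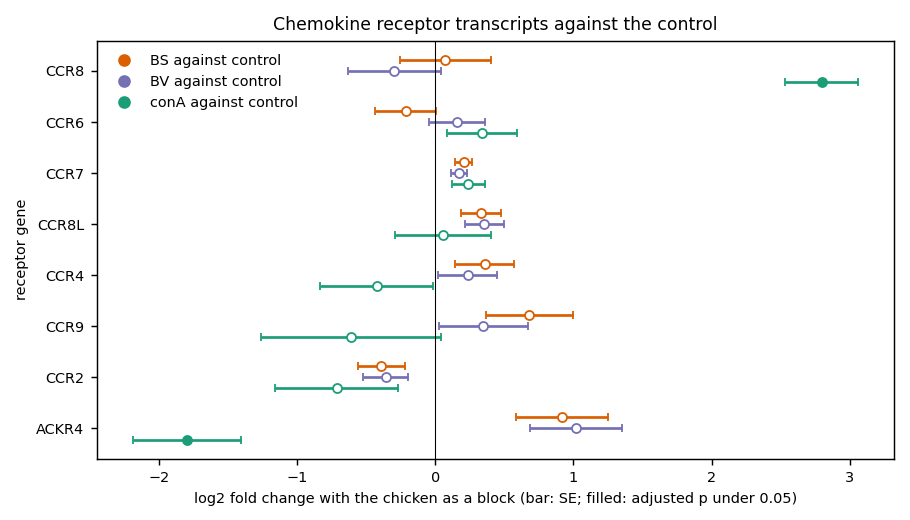
Log2 fold changes of 8 chemokine receptor genes (mean level of 10 normalized counts or more) against the control, from edgeR with the chicken as a block, with the standard error as bars. Colours give the condition, and filled points have an adjusted p under 0.05. CCR8 at 2.80 and ACKR4 at -1.80, both after conA, are the filled points.

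Of 8 other chemokine ligands tested, IL8L1 and IL8, a pair of CXC chemokines that attract heterophils and other leukocytes, moved with CCL4 and CCL5. Against the control, both passed in edgeR after BS and after BV with the block, beside 1.04% and 0.913% of all genes. In edgeR without the block 0 of the 8 passed after BS or BV, and after conA 0 passed in either edgeR fit. The paper, with DESeq2, reported IL8L1 among the genes called higher after each strain. In separate tests of normalized counts it also reported higher IL8 and CCL5 after each strain. It found no difference in the CCL5 protein of the culture supernatants. Against BS and against BV, both were lower after conA without and with the block. IL8L1 was 6.62 ± 7.76 normalized counts in the control, 79.7 ± 54.1 after BS, 63.5 ± 34.9 after BV and 14.8 ± 7.77 after conA (SD, n = 6). Its log2 FC with the block was 3.39 after BS (SE 0.52, adjusted p = 0.00164) and 3.16 after BV (SE 0.53, adjusted p = 0.00464). IL8 was 41.9 ± 35.3 in the control, 164 ± 85.8 after BS, 169 ± 69.9 after BV and 35.5 ± 27.6 after conA, with 1.84 (SE 0.37, adjusted p = 0.0375) and 1.94 (SE 0.36, adjusted p = 0.0287). The median log2 FC of the 8 ligands was 0.60 after BS and 0.55 after BV with the block, beside -0.0026 and -0.0017 for all genes tested.

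NF-kB is the transcription factor that drives many inflammatory chemokine genes. Of 19 subunits, inhibitors and targets of NF-kB, 0 passed after BS or BV without the block and 3 after each strain with it, beside 1.04% of all genes after BS and 0.913% after BV, namely the target genes CD83, IL1B and PTGS2, all higher. After conA, 5 passed without and 6 with the block, all higher, beside 2.34% and 6.12% of all genes. CD83, a surface protein of activated dendritic cells and lymphocytes, was 26.3 ± 18 normalized counts in the control, 120.4 ± 85.7 after BS, 122 ± 101 after BV and 776 ± 301 after conA. TNFAIP3, an inhibitor of NF-kB signalling, rose by 0.86 on the log2 scale after conA (adjusted p = 0.00093), the target TNFAIP2 by 4.40 (adjusted p = 0.016) and the subunit REL by 0.49 (adjusted p = 0.0204). TNFAIP3 and REL were higher in 6 of 6 chickens. TNFAIP2 was higher in 4 of 6 only, with 0 to 149 normalized counts after conA. The median log2 FC of the list was 0.15 after BS, 0.04 after BV and 0.40 after conA with the block, the last beside -0.03 for all genes tested.

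Of 18 genes of T cell activation, 11 rose after conA without the block and 10 with it, beside the same shares of all genes, and none of the 18 was called lower. The costimulatory receptors TNFRSF18 and TNFRSF9 rose by 3.42 (adjusted p = 4.2e-06) and 2.60 (adjusted p = 5.09e-06) on the log2 scale, the transcription factor EGR2 by 5.61 (adjusted p = 5.94e-06) and IRF4 by 1.81 (adjusted p = 0.000141). After BS and after BV, 0 passed without and 1 with the block, IL2RA, the gene of CD25. Of all genes, 1.04% passed after BS and 0.913% after BV with the block. The median log2 FC of this list with the block was 1.26 after conA, 0.12 after BS and 0.28 after BV.

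Marker lists of other cells were read beside the share of all genes that passed, which in the blocked fits was 1.04% after BS, 0.913% after BV and 6.12% after conA. Without the block this share was 0% after BS, 0.00493% after BV and 2.34% after conA. In these bulk samples, fewer cells of a type and less RNA per cell cannot be told apart. After conA, the summed level of 6 markers of NK or cytotoxic cells was 1081 to 3405, compared with 284 to 411 in the control, and 3 of the 6 passed without and 4 with the block. LAG3, which activated T cells also express, made up the larger part of this sum in each conA library. It had 588 to 2009 after conA and 0.887 to 25.5 in the control, and GZMA had 0 to 3.37 after conA. Of 12 thrombocyte markers tested, 1 was lower after conA without the block and 8 with it, and their sum was 1188 to 17923. After BS, 2 of 7 heterophil, 3 of 11 B cell and 3 of 9 erythrocyte markers were higher with the block, after BV 2, 3 and 2, and the thrombocyte, monocyte and NK lists had 0 calls after either strain. None of these marker lists had a call after BS or BV without the block. The lists of 14 T cell and 11 dendritic cell markers had 1 and 2 higher after each strain and 1 and 3 higher after conA with the block. The summed monocyte markers were 206 to 905 after BS and 289 to 989 after BV, within the range of the control, and CD14 was 0 to 15.2 and 8.64 to 26.3. For the conA libraries, 1 of 14 monocyte markers was higher, a share near that of all genes, as was the 1 of 14 T cell markers, and 0 of the heterophil, B cell and erythrocyte markers passed. The part of these cell types in the changes of the chemokines was not tested.

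The genes with the pattern most like each member were sought among 9877 named genes by Pearson's r of log2(normalized count + 1) over all 24 libraries, as a description. For XCL1 these were IRF4 (r = 0.949), LAG3 (r = 0.947) and BCL2 (r = 0.940), and their r was 0.555, 0.510 and 0.561 over the 18 libraries without conA and 0.918, 0.738 and 0.848 over the 6 conA libraries. For CCL1 they were CRTAM (r = 0.954), IL21R (r = 0.945) and PABPC1 (r = 0.943), with 0.425, 0.228 and 0.390 without conA and 0.937, 0.936 and 0.821 within conA. For the genes near XCL1 and CCL1, r was thus higher among the conA libraries than among the others, where both members had few reads. Because the genes were picked by r over all 24 libraries, conA included, this difference is partly set by the choice. It was not tested, and how far the r within conA rests on single libraries was not examined.

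For the major CCL4 entry the nearest genes were ACOD1 (r = 0.906), ALDH1A3 (r = 0.904) and ACSL1 (r = 0.893), and for CCL5 they were ALDH1A3 (r = 0.897), ACOD1 (r = 0.891) and KCNK17 (r = 0.860). For the minor entry they were AVD (r = 0.845), ACOD1 (r = 0.802) and ZFAND3 (r = 0.779). ACOD1, which makes the antimicrobial metabolite itaconate in activated macrophages, was near all 3 entries, with 58.1, 47.1, 14.5, 14.8, 21.1 and 6.21 normalized counts in the control and 226, 114, 87.9, 26.9, 129 and 39.1 after BS in chickens 1 to 6. AVD, the egg-white protein avidin, had means of 25.6 in the control, 322 after BS, 239 after BV and 14.7 after conA. For CCL20 they were MIRLET7I (r = 0.851), BORCS6 (r = 0.734) and MASTL (r = 0.732), whose r with CCL20 within the 6 conA libraries was -0.11, -0.36 and 0.45.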

How the data were processed

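Total RNA of PBMCs was sequenced by the authors as stranded paired-end libraries with reads of 100 bases and aligned to the chicken genome GRCg6a with STAR 2.7.3, as named in the submitters' processing notes. Neither counting tool nor annotation is given in the sources used here. The deposited raw counts are whole reads per gene and library, and the deposited normalized counts are a signal that equals these counts divided by the DESeq2 1.24.0 size factors of the authors, which was checked on the values. Library totals set the precision, and intervals cover counting error only.

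Genes with at least 2 reads over 24 libraries entered edgeR 4.0.16 (R 4.3.3), whose quasi-likelihood test was run on the raw counts after TMM normalization, with Benjamini-Hochberg adjustment over 20266 genes. The fits held 18 libraries for BS, BV and the control, 12 for conA and the control, and 24 for conA against BS or BV. DESeq2 1.42.0 was an alternative, and the scripts were tested on simulated data. Single members were compared within chickens with exact two-sided paired permutation tests (scipy 1.17.1). Log2 levels carry a pseudocount of 1.

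According to the study's methods, each of the 6 chickens gave PBMCs for every condition. That the same replicate number stands for the same chicken in each condition is not stated there or in the labels. It was assumed here, and the chicken was used as a block in a second set of fits. Deviations from the group means over 13024 genes correlated within the same chicken with a median of 0.652 for BS and the control, 0.683 for BV and the control, and 0.451 for conA and the control, where the lowest was -0.034. The own number gave the best match in 6 of 6 chickens for BS and for BV with the control. For conA it did so in 4 of 6, with the control and with each strain. The pairing is thus less sure for conA, and the blocked fits, the counts of chickens and the paired tests with conA rest on it. Where the groups did not overlap, the counts of chickens do not depend on it.

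The members and all gene lists were chosen with earlier results of these data known. Named were the members, the 3 genes most like each member (mean level of 10 normalized counts or more), receptors of the members (1 is not reported here), and at most 4 genes of each pathway list by adjusted p. CCR8L, IL1B, PTGS2 and IL2RA were named after their values were seen. Other alternatives were RLE size factors, other filters on low counts, each chicken left out, subsets of chickens, all libraries in 1 fit, a pseudocount of 5 and unpaired tests. Summing both CCL4 entries under the further settings was added after the data were seen.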

Additional observations from a re-analysis of the deposited data

Results flagged for a closer look

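Of 27 groups of 6 libraries with reads of a member, 9 held a library that stood apart by Dixon's test. For normal values chance flags about 1 in 20 groups, a rate that does not hold for low, skewed counts. Members also share the libraries, so these groups are not independent. Chicken 1 was the library that stood apart in 6 of the 9. It had 607 normalized counts of the major CCL4 entry after BS (the next highest had 302) and 886 after BV (next 302). For the minor entry it had 113 after BS (next 37.8) and 140.1 after BV (next 23.2). For CCL5 it had 589 after BV (next 250.3) and 272 after conA (next 69.7). CCL20 after conA was highest in chicken 5 with 20.8 (next 13.6). CCL19 had 1.01 normalized counts in chicken 3 after BS and 4.16 in chicken 5 after conA, where the other libraries of the group had 0, so that any read stands apart.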

How the results depend on the processing

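The calls of CCL4 and CCL5 depended on the chicken as a block. The number of members that passed after BS and after BV was 0 without and 3 with the replicate block, 3 in DESeq2 with the block, and 2 to 3 when a chicken was left out of the blocked fit, with 2 without chicken 1, where the minor CCL4 entry was lost. For conA against BS, 2 members passed without and 6 with the block, 5 in DESeq2 with the block, and 6 in each blocked fit without 1 chicken. For conA against BV these numbers were 3, 6, 5 and 4 to 6, with 4 without chicken 1. For conA against the control, 2 passed in all chickens and 1 in chickens 1 and 2 alone. Apart from these entries and CCL17, the block changed no call of a member. The share of all genes called in DESeq2 with the block, in the fits without 1 chicken and in the subsets of chickens is not given here. The counts from these fits therefore show only which members kept their call.

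The summed CCL4 entries passed only with the block, at a log2 FC of 1.17 after BS and 1.19 after BV, and of -0.84 for conA against BS and against BV. DESeq2 with the block gave 1.23, 1.18, -0.84 and -0.80. For BS against BV the sum was -0.13, which turned to 0.049 in DESeq2 with the block and ranged from -0.21 to 0.11 without 1 chicken.

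Directions that turned belonged to differences that passed in no fit, and the cause was not tested. CCL20 after BS, 0.16 in all chickens, ranged from -0.19 to 0.58 without 1 chicken, and with the block it was -0.10, -0.024 and -0.20 without chickens 1, 3 and 5. CCL20 in chickens 1 and 2 alone was -0.36 for conA against the control, -0.39 against BS and -0.77 against BV, where it ranged from -0.024 to 0.55 without 1 chicken and was -0.11 in the blocked fit without chicken 5. For BS against BV, CCL1 was -0.16 in DESeq2 with the block, ranged from -0.14 to 0.83 without 1 chicken and was -0.10 with the block without chicken 2. The major CCL4 entry was 0.019 in DESeq2 with the block, -0.22 to 0.075 without 1 chicken, and 0.12 with the block without chicken 1. The minor entry was -0.036 to 0.54 without 1 chicken, and with the block -0.11 without chicken 2 and -0.020 without chicken 4. CCL20 was -0.56 to 0.30 without 1 chicken and 0.16 with the block without chicken 2. CCL19 for conA against BS was -1.39 to 2.88 without 1 chicken and -1.38 with the block without chicken 5. Over all members and settings, 693 values kept their direction and side of the threshold, 113 newly passed, 12 no longer passed and 25 turned.

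Without conA, 6 of the 18 genes with a like pattern were found again. Low reads limit CCL1, CCL17, CCL19, CCL20 and the minor CCL4 entry, and gene lengths were not used, so the levels of different genes are not on 1 scale.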
